A study of Mus musculus with 4 samples.

Results

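The collagen genes of PyMT-A mouse mammary tumour cells were taken as every symbol made of Col, a number, a and a number with nothing after it, which gave 44 genes of the 33677 symbols counted. The names chose them, not their values. They were sorted into 11 fibrillar genes, 6 basement membrane genes (the type IV chains) and 27 others. RNA was sequenced in 4 libraries of cultured cells of a line from an FVB/NJ mammary tumour. In 2 libraries (vector 1 and vector 2) the cells had been infected with PMSCV-puro virus, and in the other 2 (Jagged1 1 and Jagged1 2) with PMSCV-Jagged1 virus, which carries the Notch ligand Jagged1. Both lines were kept in DMEM with serum. The labels do not say whether the lines are clones or the replicates separate cultures, so p-values reflect the variation among these 4 libraries alone, part or all of which may be technical.

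Collagens are trimers of alpha chains that coil around each other in a triple helix. Fibrillar collagens (types I, II, III, V, XI and relatives) build the rope-like fibrils of connective tissue and are made mostly by mesenchymal cells, whereas type IV chains assemble into the sheet on which mammary epithelium rests. The remaining types decorate fibrils, anchor the basement membrane, form beaded filaments or span the cell membrane.

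Total counts were 15609720 and 12136227 in the vector libraries and 20835208 and 13549258 in the Jagged1 libraries. Levels are CPM, the counts of a gene relative to the library's total, scaled with TMM factors, in which 3 counts, taken as the floor of detection, come to between 0.145 and 0.244 CPM; floors and intervals cover counting error only. The transduced gene, Jag1, had 159 and 112 reads in vector 1 and 2, against 5676 and 4493 in Jagged1 1 and 2, as labelled. Epithelial markers were abundant (Epcam between 10268 and 19945 counts, Krt8 between 10612 and 24594), but Krt19 had at most 1 count and the basal keratin Krt5 at most 2. The myoepithelial and basal list, mostly Krt14, summed to 460 and 235 CPM in vector and 750 and 380 CPM in Jagged1 libraries. The immune marker list summed to 1.78 and 5.04 CPM in vector 1 and 2 and 1.88 and 5.19 CPM in Jagged1 1 and 2. The endothelial list summed to 1.12, 3.50, 1.16 and 7.13 CPM in the same order.

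Basement membrane genes took more collagen counts than either other class in each library, and the collagen total did not differ between the lines beyond the spread of the vector libraries. The 44 genes took 0.219% and 0.179% of the counts of vector 1 and vector 2, and 0.212% and 0.216% of those of Jagged1 1 and Jagged1 2. Their summed level came to 2010 ± 342 CPM for vector and 2122 ± 19.0 for Jagged1 (CPM, SD, n = 2 each). No test of this sum was run, because an exact two-sided permutation test of 2 libraries against 2 cannot go below p = 0.33. The type IV genes held 59.7%, 46.7%, 53.6% and 57.4% of the collagen counts in vector 1, vector 2, Jagged1 1 and Jagged1 2, and the class of others 30.7%, 44.4%, 34.1% and 33.3%.

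Per kilobase of exon (the union of GENCODE M21 exons, which need not be the authors' annotation), the level was highest for Col4a1, at 68.0 ± 27.6 CPM per kb in vector and 73.1 ± 0.0457 in Jagged1 cells. Col4a2 followed with 67.5 ± 26.7 and 68.6 ± 0.413 CPM per kb, and Col18a1, the parent of the fragment endostatin, with 59.0 ± 2.41 and 50.4 ± 3.73. Within the vector line, the levels of these 3 genes did not differ from each other beyond their spread. A second tier in the vector line ran from Col11a1 (14.3 ± 3.31 CPM per kb) and Col16a1 (14.1 ± 0.345) through Col8a1 (11.8 ± 1.3) and Col4a5 (10.3 ± 1.37) to Col4a6 (7.55 ± 0.880) and Col12a1 (7.05 ± 2.08). All other collagens stood at 1.58 CPM per kb (Col7a1) or less in vector cells.

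**Figure D1:**
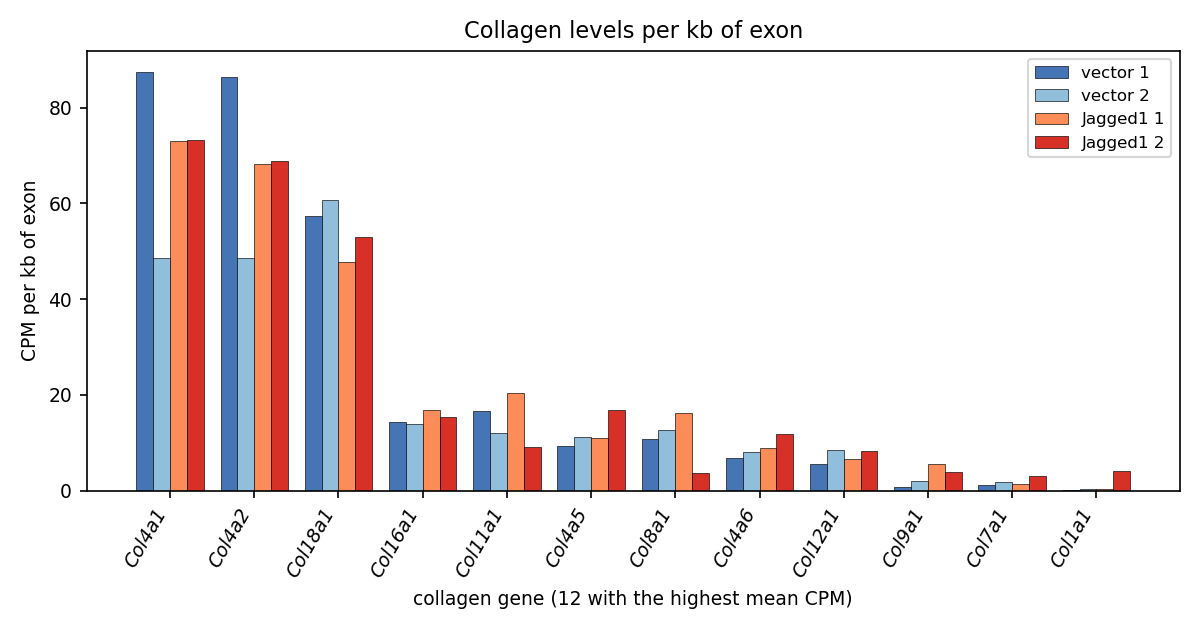
Level of the 12 collagen genes with the highest mean CPM, in CPM per kb of exon (y axis, linear), with 1 bar for each library. Col4a1, Col4a2 and Col18a1 stand above the rest in every library; Col1a1 is near 0 except in Jagged1 2.

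A filter on low counts (described with the processing) left 18 of the 44 genes for testing: 5 fibrillar, 5 basement membrane and 8 others. Of the 26 untested genes, 7 had 0 counts in every library (Col6a4, Col6a6, Col13a1, Col19a1, Col22a1, Col26a1 and Col28a1). A further 6 had at most 3 counts in any library (Col2a1, Col6a5, Col8a2, Col10a1, Col23a1 and Col24a1). Highest counts between 4 and 29 were found for Col6a3 (18), Col25a1 (17), Col4a4 (14), Col9a2 (12), Col15a1 (11), Col20a1 (10) and Col14a1 (5). The last 6, namely Col1a2, Col3a1, Col5a2, Col5a3, Col6a1 and Col6a2, reached the filter's level of 0.686 CPM (14.3 counts in Jagged1 1 and 9.29 in Jagged1 2) in 1 library, Jagged1 2, and not in the 2 it asks for.

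The comparison of the lines asks whether the Jagged1 virus goes with other collagen levels, and no tested collagen gene passed after adjustment over all genes with edgeR's quasi-likelihood test: 0 of 18 passed, where 0.00752% of 13299 genes (Jag1 alone) passed. At an unadjusted p under 0.05 stood 3 of 18, all with higher values in Jagged1 cells, against 1.8% of all tested genes in that direction, 2.15% in the other and 3.96% in both. They were Col5a1, Col9a1 and Col1a1; Col5a1 passed the filter through its Jagged1 libraries alone. In 4 of 18 genes (Col4a6, Col5a1, Col9a1 and Col16a1) the lines did not overlap and Jagged1 was the higher, against 13.9% of all tested genes, and in 1 (Col18a1) it was the lower without overlap, against 15.2%. The median log2 fold change of the 18 was 0.09, beside -0.003 over all tested genes; 12 had positive and 6 negative values. With limma-voom 0 of the 18 passed, and with DESeq2 2 passed, Col5a1 (adjusted p = 0.0153) and Col9a1 (adjusted p = 0.0284), against 0.353% of genes, 0.143% in that direction.

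**Figure D2:**
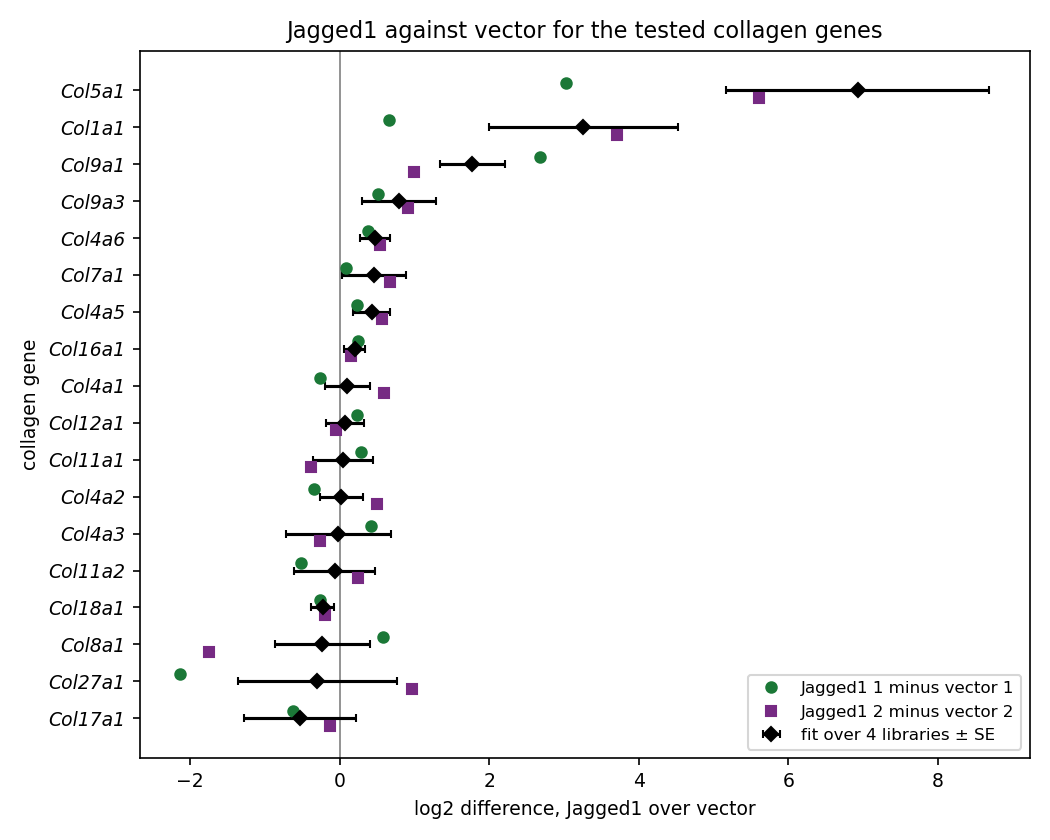
Log2 difference of Jagged1 over vector (x axis) for the 18 tested collagen genes. Diamonds with bars are the edgeR estimate ± SE over 4 libraries, circles compare the libraries numbered 1 and squares those numbered 2; Col5a1, Col1a1 and Col9a1 lie furthest to the right, and circles and squares fall on opposite sides of 0 for Col4a1, Col4a2, Col8a1, Col11a1 and Col27a1, among others.

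The libraries of a line also differed from each other. Levels compared here are CPM with 0.5 added. Between Jagged1 2 and Jagged1 1 the median absolute log2 difference was 0.58 over the 18 genes and 0.27 over all 13299. More than 2-fold apart were 6 of 18 (Col1a1, Col5a1, Col7a1, Col8a1, Col11a1 and Col27a1), against 6.59% of all genes. Without the added 0.5, Col9a3 (2.11-fold), Col11a2 (2.27-fold) and Col17a1 (2.15-fold) were also more than 2-fold apart. The share over all genes was not computed that way. Between vector 1 and vector 2 the medians were 0.52 and 0.22, and 1 of 18 (Col9a1) differed by more than 2-fold, against 4.90%. Without the added 0.5, Col17a1 (3.09-fold) and Col4a3 (vector 1 at 0.369 times vector 2) did so too.

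Col11a1, a chain of the minor fibril collagen type XI, supplied nearly all fibrillar collagen reads in 3 libraries. It was counted 3217 times in vector 1, 1878 in vector 2, 5367 in Jagged1 1 and 1618 in Jagged1 2, or 212, 153, 259 and 117 CPM. The highest and the lowest level were thus both in Jagged1 cells, which overlapped the vector libraries from either side. The log2 fold change was 0.04 ± 0.40 (SE; adjusted p = 1, edgeR), and without Jagged1 1 it was -0.63, against 0.51 without Jagged1 2. Its partner chain in type XI, Col11a2, had 25, 26, 23 and 35 counts in the same order, and Col27a1, a fibrillar chain of cartilage, had 13, 6, 2 and 15.

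The classical interstitial collagens, types I, III and V, were read mostly in Jagged1 2. Col1a1, the major chain of type I collagen (chromosome 11, 94936224 to 94953042, plus strand, GRCm38), had 16 and 24 counts in vector 1 and 2, 36 in Jagged1 1 and 376 in Jagged1 2. Col1a2, the second type I chain (chromosome 6, 4504814 to 4541544, plus strand), had 0, 0, 0 and 280. For Col1a1 this is 1.06, 1.95, 1.74 and 27.1 CPM, so Jagged1 1 lay between the vector libraries and Jagged1 2 alone stood apart, at 15.6 times Jagged1 1 (95% exact interval of counting 11.05 to 22.6). For Col1a2 the level in Jagged1 2 was at least 139-fold higher than the floor of 3 counts in Jagged1 1.

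Col3a1, the single chain of type III collagen of soft connective tissue, had 0, 0, 0 and 83 counts, at least 41.3-fold above the floor in Jagged1 1. Its neighbour Col5a2, which encodes a type V chain and lies 24615 bases away on chromosome 1, had 0, 0, 0 and 117 (at least 58.2-fold). Type V collagen starts new type I fibrils and sets their width. Col5a3, another type V chain, had 1, 0, 2 and 48 counts.

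Col5a1, the main type V chain (chromosome 2, 27886425 to 28039514, plus strand), had 0, 1, 19 and 140 counts. The lines did not overlap, and Jagged1 2 exceeded Jagged1 1 by 10.99-fold (6.78 to 18.8). Its exons share 212 bases with 2 antisense genes, whose reads cannot be told apart from its own without strand. Summed over a line, 159 counts stood against 1, a ratio of 126 with a counting interval of 22.3 to 5017. This interval does not cover the spread between the libraries of a line. In edgeR the adjusted p was 0.954 with the log2 fold change at 6.93 ± 1.76 (SE), a size that rests on 1 vector count; without Jagged1 2 the value was 4.38 (adjusted p = 0.484).

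Type VI collagen, which forms beaded filaments around cells, followed the same library pattern. Col6a1 had 1, 0, 5 and 77 counts in vector 1, vector 2, Jagged1 1 and Jagged1 2, and Col6a2 had 1, 0, 12 and 34. Col6a3 had 3, 1, 0 and 18. Without the low-count filter, which raises the number of genes tested to 24653, edgeR called 5 collagens of 37, all higher in Jagged1 cells: Col5a1, Col5a3, Col6a1, Col6a2 and Col9a1, against 0.686% of genes in both directions and 0.41% higher. Both Jagged1 libraries were above both vector libraries in 10 of those 37 collagens, against 13.4% of the 24653 genes, and below them in 4, against 12.1%. Some of these genes stood at or near the floor. Among those above were Col14a1 (2, 1, 5 and 3 counts) and Col5a3, with 2 counts in Jagged1 1 against 1 in vector 1. Among those below were Col2a1 (2, 3, 1 and 0) and Col8a2 (2, 3, 2 and 1). Col5a3, Col6a1 and Col6a2 had 50, 82 and 46 counts over the Jagged1 libraries against 1 each over the vector libraries. The ratios were 39.7 (6.81 to 1599), 65.1 (11.4 to 2602) and 36.5 (6.24 to 1473). Jagged1 2 alone gave 48, 77 and 34 of these counts. The intervals cover counting error on pooled counts, not the spread between libraries. Such ratios between the lines were taken only for genes with at least 30 Jagged1 and at most 3 vector counts, so they are high by selection. The ratios of Jagged1 2 over Jagged1 1 given above with an interval or against the floor followed another rule. It asked for at least 30 counts in Jagged1 2 and a level more than 5 times that of Jagged1 1. They too are high by selection.

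Fibrillar genes other than Col11a1 summed to 3.76 and 4.88 CPM in the vector libraries, 4.06 in Jagged1 1 and 78.8 in Jagged1 2. Jagged1 1 lay between the vector libraries, and the difference between the lines came from Jagged1 2. Without Jagged1 2 the log2 fold change of Col1a1 was 0.22 in place of 3.26 ± 1.27 (SE; adjusted p = 1, edgeR), and without Jagged1 1 it was 4.204 (adjusted p = 0.0423). Leaving out Jagged1 1 also brought Col5a1 past the threshold (7.80, adjusted p = 0.0491), so 2 of 18 collagens passed there, against 0.0376% of genes, each of them higher in Jagged1 cells. In that fit the only Jagged1 library is Jagged1 2, which is assumed to vary like the vector pair that alone gives the spread, so these p-values set 1 library apart and do not test the line.

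Several genes of connective tissue cells stood highest in the same library, Jagged1 2. Of the 13852 genes with at least 30 counts over the libraries, 29.4% were highest there, beside 15 of 26 such collagens. Of these collagens, Col1a2, Col3a1, Col5a1, Col5a2, Col5a3, Col6a1, Col6a2, Col9a2 and Col27a1 reached 30 counts only with those of Jagged1 2. Their place in this count thus followed in part from the rule, and no excess is read from it. The markers named singly here were picked after their values were seen. The endothelial gene Cdh5 (6, 32, 10 and 84 counts) and the basal gene Trp63 (89, 93, 149 and 273) were also highest there in CPM. Cdh5 alone gave 6.05 of the 7.13 CPM of the endothelial list in Jagged1 2. Of that list, Pecam1 (4, 1, 0 and 0 counts) and Vwf (2, 1, 0 and 0) had none there. Tie1, Emcn, Cldn5 and Erg had 0 in every library, and Esam had 5, 7, 12 and 11. Krt14 was highest in Jagged1 1. The fibroblast marker list, of which 11 of 12 genes were counted, summed to 3.70 and 8.29 CPM in the vector libraries, 10.97 in Jagged1 1 and 24.4 in Jagged1 2. The receptor gene Pdgfrb had 0, 0, 9 and 103 counts, the fibril-binding proteoglycan gene Dcn 0, 0, 6 and 23, and the matricellular gene Postn 0, 33, 39 and 96. Pdgfra had 51, 61, 166 and 93, highest in Jagged1 1. Lum and Tcf21 were at 0 in every library, and Thy1 had 1 count in all. The mammary luminal list summed to 6838 and 5594 CPM in vector and 6024 and 5050 CPM in Jagged1 libraries. The part of these markers in the collagen result was not tested, and in bulk RNA more cells of a type and more RNA per cell cannot be told apart.

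Genes with at least 30 counts in 1 library and at most 3 in each other library, a rule set after the values were seen, numbered 0 for vector 1, 0 for vector 2, 1 for Jagged1 1 and 13 for Jagged1 2, or 0.0386% of all symbols in the last case. Of these 13, 4 were collagens (Col1a2, Col3a1, Col5a2 and Col5a3). Among the remaining genes were the proteoglycan gene Bgn (1, 0, 1 and 183 counts), the collagenase-activating membrane protease gene Mmp14 (0, 0, 2 and 90), the mesenchymal cadherin gene Cdh11 (0, 0, 0 and 70) and the pericyte antigen gene Cd248 (0, 0, 1 and 34). The others were Fstl1 (0, 0, 3 and 100), RP23-3G8.7 (2, 3, 2 and 74), Lrg1 (0, 3, 0 and 67), Chst11 (3, 3, 3 and 51) and Map1a (1, 0, 3 and 42).

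**Figure D3:**
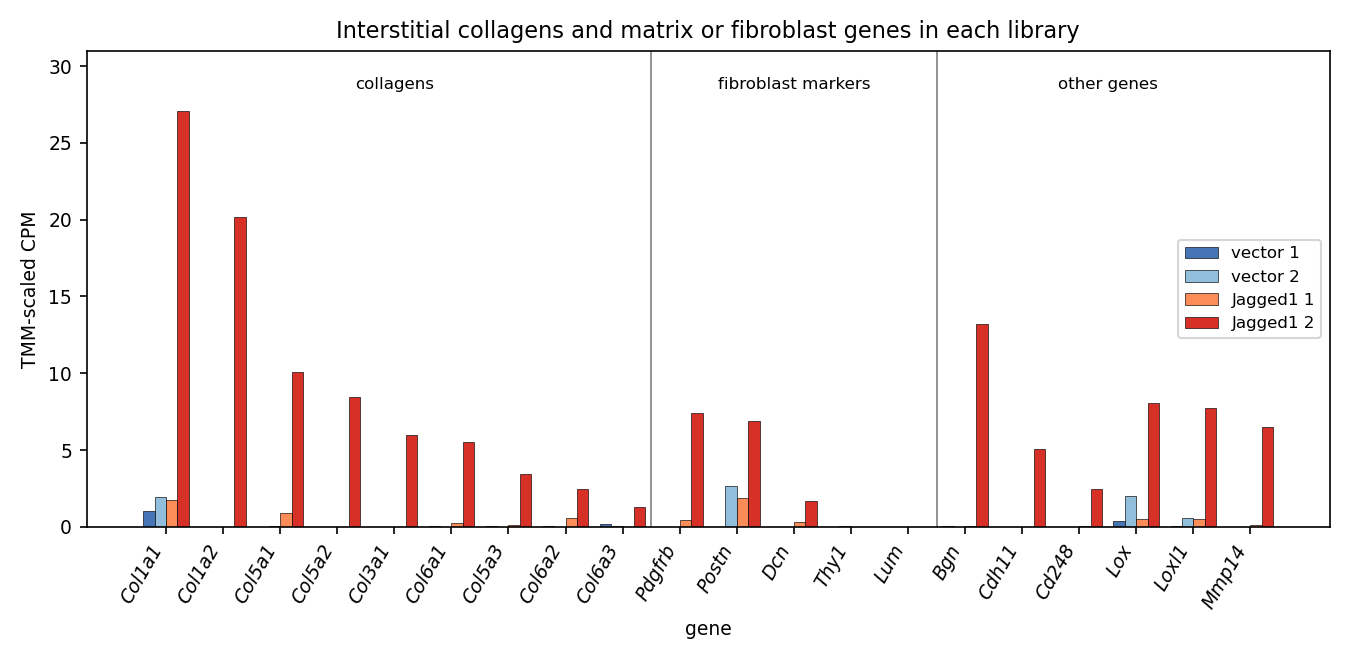
Level in CPM (y axis, linear) of 9 collagens, 5 fibroblast markers and 6 other genes, with 1 bar for each library; the genes were picked after their values were seen. The bars of Jagged1 2 stand highest for all genes shown except Thy1 and Lum, whose levels are at or near 0, and Col1a1 reaches 27.1 CPM there. Not every marker of the fibroblast list is shown. Pdgfra, left out, was highest in Jagged1 1 (8.02 CPM, against 6.70 in Jagged1 2).

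The windows upstream of 3 of these genes show how unlike their promoters are in composition, and are printed because the genes were read together in Jagged1 2. Each window runs from 250 bases before to 50 bases after the RefSeq start (GRCm38.p6), and capitals mark matches on either strand to 4 motifs. These are the CCAAT box, searched by those letters, and the GC box, searched as GGGCGG. The others are the TATA box, for which the letters searched were TATAAA, and the core motif of RBPJ, the DNA-binding factor of Notch signalling. The RBPJ core was searched as TGGGAA. A box or core named here is a match of letters at any position in the window, and whether it works was not tested. The windows are chr6:4505368-4505667, chr1:45311288-45311587 and chr2:27886175-27886474, all on the plus strand.
Col1a2: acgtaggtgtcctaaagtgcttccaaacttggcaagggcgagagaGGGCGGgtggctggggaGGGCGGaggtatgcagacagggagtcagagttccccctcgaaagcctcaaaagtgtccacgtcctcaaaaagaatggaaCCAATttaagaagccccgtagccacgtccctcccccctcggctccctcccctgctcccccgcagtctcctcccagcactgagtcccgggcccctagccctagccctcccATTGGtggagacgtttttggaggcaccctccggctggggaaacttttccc
Col3a1: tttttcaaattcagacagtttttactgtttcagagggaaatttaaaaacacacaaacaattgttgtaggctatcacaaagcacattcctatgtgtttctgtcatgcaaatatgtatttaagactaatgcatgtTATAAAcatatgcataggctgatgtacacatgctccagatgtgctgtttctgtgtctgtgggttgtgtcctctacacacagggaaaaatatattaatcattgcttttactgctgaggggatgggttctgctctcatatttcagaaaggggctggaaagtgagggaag
Col5a1: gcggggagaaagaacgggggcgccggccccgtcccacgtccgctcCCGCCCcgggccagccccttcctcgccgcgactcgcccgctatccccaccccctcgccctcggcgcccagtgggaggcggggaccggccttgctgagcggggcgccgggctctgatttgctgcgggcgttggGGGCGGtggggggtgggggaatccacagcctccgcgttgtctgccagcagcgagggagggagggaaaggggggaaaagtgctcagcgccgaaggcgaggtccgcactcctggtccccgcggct
The Col1a2 window has 2 CCAAT and 2 GC boxes and a GC content of 61.0%, the Col3a1 window 1 TATA box and 37.7%, and the Col5a1 window 2 GC boxes and 75.0%. None of the 3 windows has the RBPJ core, which stands in 31.6% of 38 windows of 35 collagen genes and in 25.6% of all 32851 windows. CCAAT boxes stood in 34.2% of collagen windows and 37.4% of all, GC boxes in 60.5% and 35.7%, and TATA boxes in 13.2% and 13.6%.

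Type IV collagen, the scaffold of the basement membrane, is encoded by 3 pairs of genes that lie head to head. The commonest network, made of 2 kinds of chain, comes from Col4a1 (chromosome 8, 11198423 to 11312826, minus strand) and Col4a2 (chromosome 8, 11312805 to 11449287, plus strand), whose exons overlap by 22 bases at their starts. Because the strand setting of the counting is not given, reads in that overlap cannot be assigned to either gene with certainty. Their promoter windows, chr8:11312777-11313076 on the minus strand and chr8:11312555-11312854 on the plus strand, share 78 bases and are printed because the counts of the pair kept a narrow ratio.
Col4a1: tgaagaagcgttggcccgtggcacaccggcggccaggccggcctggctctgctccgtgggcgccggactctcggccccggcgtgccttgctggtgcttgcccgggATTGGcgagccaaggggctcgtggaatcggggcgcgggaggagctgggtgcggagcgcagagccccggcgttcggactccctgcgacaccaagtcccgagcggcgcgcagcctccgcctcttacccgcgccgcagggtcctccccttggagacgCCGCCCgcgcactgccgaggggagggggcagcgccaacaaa
Col4a2: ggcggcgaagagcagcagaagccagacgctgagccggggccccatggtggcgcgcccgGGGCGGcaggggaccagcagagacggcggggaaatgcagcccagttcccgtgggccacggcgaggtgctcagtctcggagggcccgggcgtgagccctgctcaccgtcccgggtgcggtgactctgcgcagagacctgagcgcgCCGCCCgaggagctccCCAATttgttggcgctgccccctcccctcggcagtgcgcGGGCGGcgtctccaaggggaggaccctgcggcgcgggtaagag
Capitals mark the same motifs as above; the Col4a1 window has 1 CCAAT and 1 GC box, the Col4a2 window 1 CCAAT and 3 GC boxes, and neither has a TATA box or an RBPJ core. No match in the printed windows overlaps a match to another motif.

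Col4a1 was counted 9890 times in vector 1, 4455 in vector 2, 11292 in Jagged1 1 and 7579 in Jagged1 2, and Col4a2 8659, 3953, 9355 and 6327 times. In CPM, Col4a1 stood at 653, 362, 546 and 546, so both Jagged1 libraries lay between the vector libraries. The ratio of Col4a1 to Col4a2 counts kept between 1.13 and 1.21 in the 4 libraries, and between 0.999 and 1.07 per length. The log2 fold changes were 0.11 ± 0.29 for Col4a1 and 0.02 ± 0.29 for Col4a2 (SE; adjusted p = 1 for each, edgeR). They depended on which vector library was used, at 0.60 and 0.51 without vector 1 and -0.26 and -0.33 without vector 2. Ribosomal 18S RNA took 0.982% of the counts of vector 1, against 0.0735% in vector 2, 0.177% in Jagged1 1 and 0.081% in Jagged1 2; its part in these values was not tested.

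Col4a5 and Col4a6, the second pair, lie 1309 bases apart on the X chromosome and encode chains of the network under many epithelia. Their promoter windows do not overlap and are printed for comparison with the first pair (chrX:141475169-141475468, plus strand, and chrX:141474027-141474326, minus strand).
Col4a5: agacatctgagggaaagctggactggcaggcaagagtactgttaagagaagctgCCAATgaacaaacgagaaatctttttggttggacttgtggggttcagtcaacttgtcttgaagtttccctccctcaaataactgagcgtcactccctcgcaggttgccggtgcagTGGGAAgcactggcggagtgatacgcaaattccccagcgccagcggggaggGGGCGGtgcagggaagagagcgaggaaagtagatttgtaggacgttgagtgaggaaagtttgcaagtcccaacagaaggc
Col4a6: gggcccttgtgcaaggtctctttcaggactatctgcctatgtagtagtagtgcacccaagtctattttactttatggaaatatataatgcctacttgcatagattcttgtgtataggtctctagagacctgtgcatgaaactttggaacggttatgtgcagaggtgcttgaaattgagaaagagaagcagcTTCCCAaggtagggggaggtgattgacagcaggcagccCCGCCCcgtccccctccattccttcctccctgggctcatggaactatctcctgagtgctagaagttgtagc
Each has 1 GC box and 1 RBPJ core, and Col4a5 has 1 CCAAT box besides; the GC content is 52.7% and 48.3%, against 74.0% for Col4a1 and 73.7% for Col4a2.

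Col4a6 was counted 836, 801, 1484 and 1320 times, or 55.2, 65.1, 71.7 and 95.1 CPM, in vector 1, vector 2, Jagged1 1 and Jagged1 2. The lines did not overlap, Jagged1 2 was highest, and the log2 fold change was 0.47 ± 0.20 (SE; unadjusted p = 0.063, adjusted p = 1, edgeR). Col4a5 was counted 952, 933, 1530 and 1562 times, or 62.9, 75.9, 73.9 and 113 CPM. Here Jagged1 1 lay below vector 2, and the log2 fold change was 0.43 ± 0.25 (adjusted p = 1, edgeR), or 0.09 without Jagged1 2. The ratio of Col4a5 to Col4a6 counts lay between 1.03 and 1.18. The third pair, Col4a3 and Col4a4, whose chains build the kidney glomerular basement membrane, had at most 11 and 14 counts in any library.

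**Figure D4:**
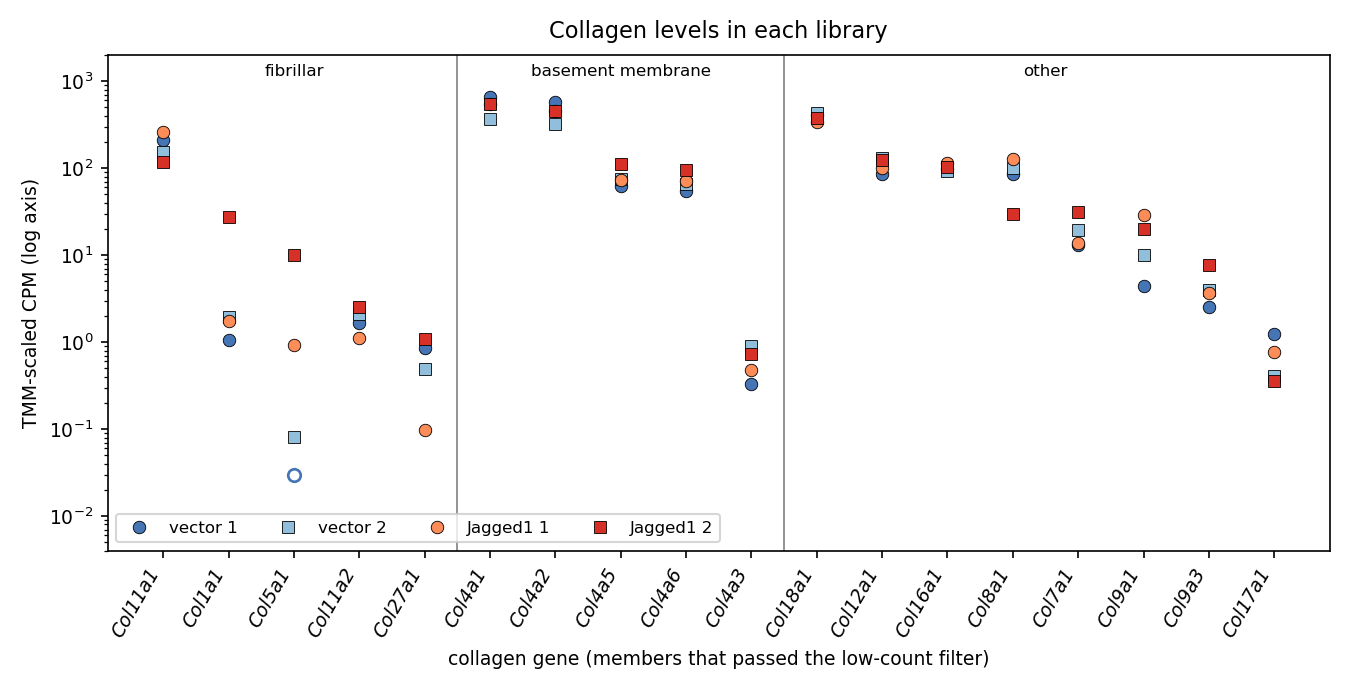
Level of the 18 tested collagen genes in each library, in TMM-scaled CPM on a log axis, sorted by class and mean level; the open symbol marks 0 counts. The 4 symbols lie close together for Col18a1 and Col16a1, Jagged1 2 stands alone at the top for Col1a1 and Col5a1, and it stands alone at the bottom for Col8a1.

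Among the remaining collagens the highest level was that of Col18a1, a basement membrane proteoglycan. It was counted 6094, 5244, 6944 and 5171 times in vector 1, vector 2, Jagged1 1 and Jagged1 2, or 402, 426, 336 and 373 CPM. No other tested collagen was lower in Jagged1 cells without overlap, and its log2 fold change was -0.23 ± 0.15 (SE; edgeR adjusted p = 1). Col15a1, its close relative in the multiplexin class, had 11, 4, 2 and 3 counts.

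Col9a1 encodes a chain of type IX collagen, which sits on the surface of cartilage fibrils. It was counted 66 and 123 times in vector 1 and 2 and 593 and 277 times in Jagged1 1 and 2. At 4.36, 10.0, 28.7 and 19.96 CPM, the lines did not overlap and Jagged1 1 was highest. The log2 fold change was 1.77 ± 0.43 (SE; unadjusted p = 0.0081, adjusted p = 0.914, edgeR), the smallest unadjusted p among the collagens. With 1 library left out it stayed between 1.29 and 2.48, and adjusted p-values over all alternatives ran from 7.71e-07 (no low-count filter) to 1. The other type IX chains were lower in counts, with 38, 49, 75 and 106 for Col9a3 (log2 fold change 0.79 ± 0.50; adjusted p = 1, edgeR) and 4, 6, 12 and 12 for Col9a2.

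The fibril-associated collagens Col12a1 and Col16a1 were well read and close between the lines. Col12a1 had 1287, 1597, 2073 and 1735 counts (log2 fold change 0.07 ± 0.25; adjusted p = 1, edgeR), with overlapping lines. Col16a1 had 1467, 1151, 2366 and 1446, or 96.9, 93.6, 114 and 104 CPM. Jagged1 was the higher without overlap but by a small margin; the log2 fold change was 0.20 ± 0.15 (edgeR adjusted p = 1).

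Col8a1, a short-chain collagen of hexagonal networks in vessel walls and the eye, varied most within the Jagged1 line among the well-read genes outside the fibrillar class. It was counted 1285, 1221, 2627 and 409 times, or 84.9, 99.3, 127 and 29.5 CPM. Jagged1 1 was the highest and Jagged1 2 the lowest library, 4.31-fold apart, and the vector libraries lay between them. Col7a1, whose product anchors epithelium to the stroma, had 197, 240, 287 and 431 counts and overlapped between the lines. Col17a1, the transmembrane collagen of hemidesmosomes, had 19, 5, 16 and 5.

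With edgeR and the low-count filter, no gene of the 4 lists of genes that act on collagen chains passed after adjustment. Of 22 genes for folding and modification in the endoplasmic reticulum, 18 were tested and 0 passed in either direction; 12 had positive and 6 negative values, with a median log2 fold change of 0.10 that was 0.25 without vector 1 and -0.013 without vector 2. The prolyl 3-hydroxylase gene P3h2 was counted 441, 245, 838 and 654 times (log2 fold change 0.83 ± 0.23), and the lines did not overlap in CPM. P3h3, its relative, had 4, 2, 15 and 12 counts (1.83 ± 0.63) and passed the filter through its Jagged1 libraries alone. Ppib, the proline isomerase of the same machinery, had 1664, 1199, 1606 and 982 counts (-0.48 ± 0.15), and both Jagged1 libraries were lower in CPM.

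Of 16 genes counted for propeptide removal and crosslinking, 9 were tested and 0 passed; 7 values were positive and 2 negative, with a median of 0.36. Bmp1, which encodes the main C-propeptide protease, had 2408, 2320, 4743 and 3195 counts (log2 fold change 0.40 ± 0.16), and Pxdn, the peroxidase that crosslinks type IV collagen, had 2738, 2068, 4462 and 3201 (0.36 ± 0.15). Loxl4, a lysyl oxidase gene, had 2154, 933, 1414 and 567 (-0.996 ± 0.38). In CPM none of these 3 overlapped between the lines, Bmp1 and Pxdn being higher and Loxl4 lower in Jagged1 cells. Over the list, 4 of 9 tested genes were higher and 1 lower without overlap, beside 6 and 4 of 18 folding genes, and 13.9% and 15.2% of all tested genes. Lox and Loxl1, the lysyl oxidases of fibrillar collagen and elastin, singled out after their values were seen, had 6, 25, 10 and 112 and 1, 7, 11 and 107 counts, highest in Jagged1 2 like the type I and V chains.

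Of 11 collagen receptor and uptake genes, 7 were tested and 0 passed; 6 values were positive and 1 negative, with a median of 0.22 that was -0.52 without Jagged1 2 and -0.001 without vector 1. The 3 with the smallest unadjusted p were Itgb1, the shared beta chain of the collagen-binding integrins (0.16 ± 0.17), the adhesion receptor gene Adgrg1 (0.22 ± 0.29) and Itga1 (0.50 ± 0.72). The uptake receptor gene Mrc2, untested and singled out after its values were seen, had 5, 0, 3 and 44 counts. Of 13 genes of collagen breakdown and its inhibitors, 8 were tested and 0 passed; 3 values were positive and 5 negative, with a median of -0.07. Timp1, a metalloprotease inhibitor, stood at -0.27 ± 0.16, the gelatinase gene Mmp2 at 0.95 ± 0.73 and the collagenase gene Mmp13 at 1.36 ± 1.11. Mmp13 had 49, 61, 29 and 275 counts, so its positive value rested on Jagged1 2. The adjusted p was 1 for each gene named in these lists (edgeR). At an unadjusted p under 0.05 stood 3 of 18 folding genes (P3h3 among them), 2 of 9 crosslinking, 0 of 7 receptor and 0 of 8 breakdown genes in edgeR, against 3.96% of all tested genes. DESeq2 and limma-voom each called 0 in every one of the 4 lists, and edgeR without the low-count filter called 1 folding gene, P3h2, and 1 crosslinking gene, Loxl4.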

How the data were processed

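STAR 2.6.0c, featureCounts 1.6.2 and mm10 (GRCm38) are named in the submitters' processing notes; annotation release and strand setting were not given in the sources used here. The authors deposited raw read counts per gene symbol, not normalized, 1 column per library. In the gene names, 27 symbols had been turned into dates and 2 names were repeated; those genes are not named. Total counts ranged from 12136227 to 20835208.

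Libraries were grouped by the virus named in the labels. With edgeR 4.0.16, genes were kept by filterByExpr (a minimum count of 10 in a library of median size, which is 0.686 CPM, in at least 2 libraries; 13299 kept), scaled with TMM and tested with the quasi-likelihood F test (robust, legacy) in R 4.3.3, with Benjamini-Hochberg adjustment over all tested genes and a threshold of 0.05. The script was tested on simulated data in which every gene had the same fixed dispersion. That checks the code and does not measure the power in these libraries. SE is the absolute log2 fold change over the square root of F. Differences within a replicate number are in log2 CPM (prior count 2). Ratios between libraries of a line use CPM with 0.5 added where a median or a count of genes over 2-fold is given. Alternatives used DESeq2 1.42.0, limma 3.58.1 voom, RLE size factors, other filters, a replicate block and single libraries left out (the lone library of a line is then assumed to vary like the other line's pair); those for the pathway lists were added after the data were seen. Chi-square per degree of freedom between replicates was 35.6 (vector) and 55.9 (Jagged1), so no 2 libraries were the same and each counts as 1 sample.

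The members and gene lists were chosen with earlier results of these data known. Named with log2 fold change, SE and adjusted p were the members past the threshold in any fit, the 2 of each class with the highest mean CPM and the 8 with the smallest unadjusted p. Col5a3, Col6a1 and Col6a2, past the threshold only without the low-count filter, are given by counts and pooled ratios instead. Of each pathway list the 3 with the smallest unadjusted p were named. Other genes, single genes of the marker lists among them, were named after their values were seen, and not all are marked so where they appear. Exons of 13 collagen genes overlap another gene, by at most 563 bases (Col4a3). Promoter windows come from RefSeq (GRCm38.p6) and matched 35 of 44 genes by symbol.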

Additional observations from a re-analysis of the deposited data

How the results depend on the processing

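The count of 0 collagens past the threshold was the same with RLE size factors, limma-voom and a minimum mean of 5 CPM; it was 2 with DESeq2, 5 without the low-count filter, and between 0 and 2 with 1 library left out. Over all genes 1 passed, against 47 with DESeq2, 169 without the filter, and between 0 and 5 with 1 library left out; fewer samples enter the last. The median of tested collagens (0.09) was 0.45 without the filter and between 0.10 and 0.36 with 1 library left out. By class it was 0.04 for fibrillar genes (3.23 without the filter, 3.29 at 5 CPM, between 0.12 and 0.68 leaving out 1 library), 0.11 for basement membrane genes (0.093 to 0.57 leaving out 1 library) and 0.13 for others (0.32 without the filter, 0.033 to 0.29 leaving out 1 library). The fibrillar values of 3.23 and 3.29 are those of Col1a1 itself, which stood at 0.22 without Jagged1 2. Both settings also take in Col1a2, read in Jagged1 2 alone. These 2 medians thus rest on that library and do not describe the class. Collagens with Jagged1 libraries above both vector libraries numbered 10, and below 4, of 37 without the filter, against 13.4% and 12.1% of 24653 genes. Some of these collagens stood at or near the floor in every library. The summed collagen level of Jagged1 2 was 2159 CPM without TMM factors. For the pathway lists, propeptide and crosslinking genes had a median of 1.05 without the filter and 0.15 at 5 CPM. With 1 library left out the lists ranged from 0.27 to 0.46 (propeptide), -0.013 to 0.25 (folding), -0.52 to 0.65 (receptors) and -0.19 to 0.26 (breakdown).

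Of 12 named collagens with a fit, 8 kept their direction in every alternative run for them; Col5a1 and Col9a3 fell under the minimum of 5 CPM, and no value was had for them there. Col11a1 turned to -0.0499 with limma-voom. With 1 library left out, Col11a1 ranged from -0.63 to 0.51 (negative without Jagged1 1 or vector 2), Col12a1 from -0.19 to 0.41 (negative without vector 1 or Jagged1 2), Col4a1 from -0.26 to 0.60 and Col4a2 from -0.33 to 0.51 (both negative without vector 2). The cause was not tested.

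The labels give both lines replicates 1 and 2 but do not say that a number marks a shared batch. Deviations of same-numbered libraries correlated at 0.43 over 13299 genes. With the replicate block 17 genes passed, among them 1 collagen, Col5a1 (adjusted p = 0.0353), and Col11a1 stood at -0.0464. At this depth the filter left out 26 of the 44 collagens.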
